A study of Mus musculus with 29 samples.

Results

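The germinal centre is the site in lymphoid follicles where activated B cells mutate and select their antibody genes, and the plasma cell is the antibody-secreting cell that a B cell can become. The report is about 8 genes of these programmes, taken by symbol: Bcl6, Bach2 and S1pr2 on the germinal centre side, and Prdm1, Irf4, Xbp1, Igj and Sdc1 on the plasma cell side. All 8 were listed, among 21819 genes in the B cell data and among 21675 genes in the fibroblast data. The study measured RNA in mouse B cells and fibroblasts that differ in Myc activity, in 29 libraries.

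WT_spleen held 4 libraries of B cells from the spleens of wild-type C57BL/6 mice. Tg_spleen held 4 libraries of the same kind of cells from C57BL/6 mice with the Eμ-myc transgene, in which an immunoglobulin heavy chain enhancer drives Myc in the B lineage. Both came from animals 6 to 8 weeks old and were enriched with magnetic beads against B220. Tg_lymphnode held 3 libraries of lymph node tumour cells from C57BL/6 transgenic mice, pressed through a strainer and not purified, so that any other cell of the node could contribute RNA. The ages of these mice are not given in the sources used here. The fibroblasts were 3T9 cells of mixed strain derived from mouse embryos, homozygous for a floxed c-myc allele and infected in culture with MycER, a Myc fusion that becomes active when 4-hydroxytamoxifen binds it. They were sampled at 0 h (OHT_0h) or after 4, 8 or 16 h of 400 nM 4-hydroxytamoxifen (OHT_4h, OHT_8h and OHT_16h), with 4 libraries each. Nascent RNA, labelled with 300 µM 4-thiouridine for 10 min, was collected in 1 library before the drug and 1 after 4 h of it. Organ, enrichment and tumour state changed together between the lymph node and spleen groups and cannot be told apart. Nothing says that the replicates came from separate animals or cultures, so p-values measure only the spread between these samples.

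Bcl6 is the transcriptional repressor that germinal centre B cells need, and it holds down Prdm1. Prdm1 encodes Blimp1, the repressor that closes the B cell programme in plasma cells, and Bach2 is a repressor that delays this step by acting on Prdm1. Irf4 is a factor that plasma cells need at a high level, and Xbp1 drives the secretory machinery through the unfolded protein response. Igj (now named Jchain) encodes the chain that joins IgM and IgA into polymers. Sdc1 encodes CD138, a surface marker of plasma cells that epithelia also carry, and S1pr2 encodes a receptor that keeps B cells inside the germinal centre.

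Bcl6 and Igj passed the test against WT_spleen in both transgenic groups, as did Prdm1. Xbp1 passed the test in fibroblasts at 4 and 16 h, as Bach2 did at 16 h. The stretches before the start sites of Bcl6, Igj and Xbp1 are shown as examples. They are from RefSeq on build GRCm38.p6, written 5′ to 3′ on the gene's strand, at chr16:23988867-23989102 (minus strand) for Bcl6, chr5:88527898-88528147 (minus strand) for Igj and chr11:5520391-5520640 (plus strand) for Xbp1. Each ends at the base before the gene. The deposited values were made on another build, mm9. Capitals mark the E-box CACGTG, the sequence that Myc binds together with its partner Max.
Bcl6: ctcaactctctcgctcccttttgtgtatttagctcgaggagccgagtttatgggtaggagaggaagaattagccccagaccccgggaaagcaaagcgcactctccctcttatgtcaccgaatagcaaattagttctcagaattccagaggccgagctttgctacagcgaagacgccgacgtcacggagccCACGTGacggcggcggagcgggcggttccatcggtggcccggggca
Igj: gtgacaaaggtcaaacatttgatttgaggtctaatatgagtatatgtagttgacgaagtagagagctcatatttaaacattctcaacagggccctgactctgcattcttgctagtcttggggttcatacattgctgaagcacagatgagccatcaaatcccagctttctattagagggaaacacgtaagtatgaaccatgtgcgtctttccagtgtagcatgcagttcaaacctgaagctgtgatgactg
Xbp1: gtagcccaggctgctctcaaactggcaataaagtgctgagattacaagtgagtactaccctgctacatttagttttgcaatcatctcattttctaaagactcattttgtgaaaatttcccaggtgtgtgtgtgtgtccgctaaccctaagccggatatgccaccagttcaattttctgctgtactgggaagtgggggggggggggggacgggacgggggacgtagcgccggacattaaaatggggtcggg
All 8 genes had a window in the RefSeq table, 9 windows in all. Among these, the E-box lay in the 250 bases before a start site in 1 window, the first of the 2 of Bcl6, and it lay in 6.02% of all 32851 windows of that length. The cyclic AMP response element TGACGTCA lay in the S1pr2 window and in 1.55% of all windows. The AP-1 type element TGANTCA lay in the Prdm1 window and in 6.75% of all windows. Both strands were searched, and no 2 of these matches lay in the same window. A match describes the letters and shows no binding.

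Values are FPKM, fragments per kilobase of transcript scaled to the library's fragments, so that levels of different genes can be set side by side within the B cell data. Myc stood between 190.7 and 273.3 FPKM in WT_spleen, between 1017.4 and 2407.9 in Tg_spleen and between 1759.4 and 2178.8 in Tg_lymphnode. In each B cell library at least 98.48% of the low values of short RNAs were whole multiples of 1 read (tolerance 0.04). The value of 1 read was chosen in each library to make this share the largest. It implies a scaling denominator of 824108 to 1469900 reads. That denominator is not a count of all reads in a library. With that value, Prdm1 rested on an estimated 24 and 25 reads in Tg_lymphnode replicates 1 and 2. Bcl6 rested on an estimated 32 and 45 there.

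Tg_lymphnode replicate 3 stood apart from the other 10 B cell libraries. The summed FPKM of 9 B cell markers was 4185 in this library, 20050 and 22097 in Tg_lymphnode replicates 1 and 2, 26313 to 39683 in Tg_spleen and 43788 to 48343 in WT_spleen. Its defining B cell markers were thus low, against its label. The sum of 8 plasmacytoid dendritic cell markers was 13745 in replicate 3 and 394 to 1117 in the others, with Siglech, a receptor of those cells, at 2654.8 FPKM. The sum of 12 T cell markers was 17845 there and 257 to 1604 in the others, but it came mostly from the coreceptor genes Cd4 (9468.2 FPKM) and Cd8b1 (7614.6). Cd3e, a part of the T cell receptor complex, was at 62.8 FPKM there and at 143.1 in replicate 2. The sum of 15 markers of epithelium and exocrine gland was 2713, 5259 and 12803 in Tg_lymphnode replicates 1, 2 and 3, and 25.0 to 113 in the spleen libraries. Krt8 and Krt19, keratins of simple epithelium, were at 2.6 FPKM or less in every library, and the sums came mostly from secreted gland proteins such as Psp, at 735.2, 2984.8 and 4968.2 FPKM in the 3 libraries. Counts and differences for Tg_lymphnode are therefore given with and without replicate 3, while the means ± SD of Tg_lymphnode include it.

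**Figure D1:**
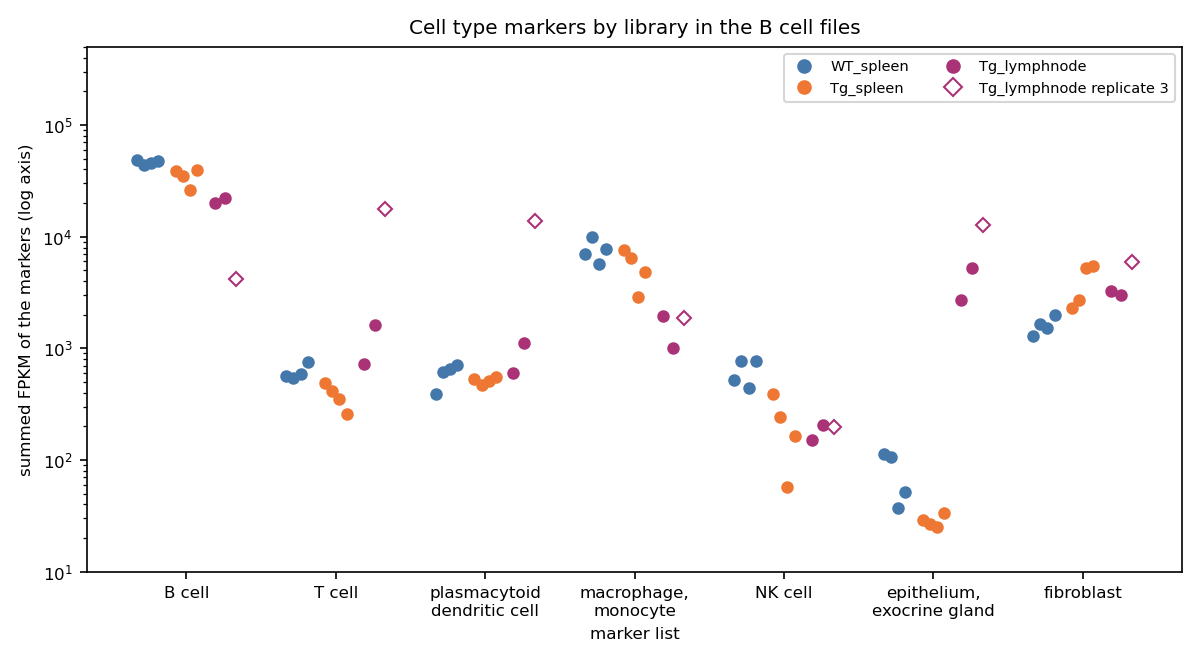
Summed FPKM (log axis) of the markers of 7 cell types in each of the 11 B cell libraries, 1 point per library, coloured by group. The open diamond, Tg_lymphnode replicate 3, is the lowest of all libraries for B cell markers, at 4185, and the highest for plasmacytoid dendritic cell markers, at 13745.

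In Tg_spleen, 5 of the 8 genes were lower than in WT_spleen and 0 were higher. Over all 14021 genes tested, 12.2% were lower and 15.7% were higher. Bcl6 and Igj had the largest differences, Prdm1, S1pr2 and Sdc1 were also lower, and Bach2, Irf4 and Xbp1 did not pass the test. The median log2 difference of the 8 genes was -0.89, beside -0.05 over all genes. The test was limma's moderated test on log2(FPKM + 0.5), with Benjamini-Hochberg adjustment over all genes and a threshold of 0.05. Differences are on that scale, which understates changes of low genes. In bulk RNA, fewer cells of a type and less RNA per cell cannot be told apart.

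In Tg_lymphnode, 4 of the 8 genes were lower than in WT_spleen (Bcl6, Igj, Prdm1 and Bach2) and 0 were higher. Over all 14758 genes tested, 17.7% were lower and 20.3% were higher. Without replicate 3, 7 of the 8 genes were lower and 0 higher, with 21.1% of 15126 genes lower and 22.9% higher. S1pr2 alone did not pass. The median log2 difference of the 8 genes was -1.98 with replicate 3 and -1.57 without it. Between Tg_lymphnode and Tg_spleen, 1 of the 8 genes was lower (Igj) and 0 were higher, beside 2.39% lower and 3.56% higher of all 14692 genes. Without replicate 3, Bcl6 was called lower as well, beside 2.76% lower and 3.37% higher of all 15000 genes. Both spleen comparisons share the WT_spleen libraries, and each Tg_lymphnode comparison shares the tumour libraries.

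**Figure D2:**
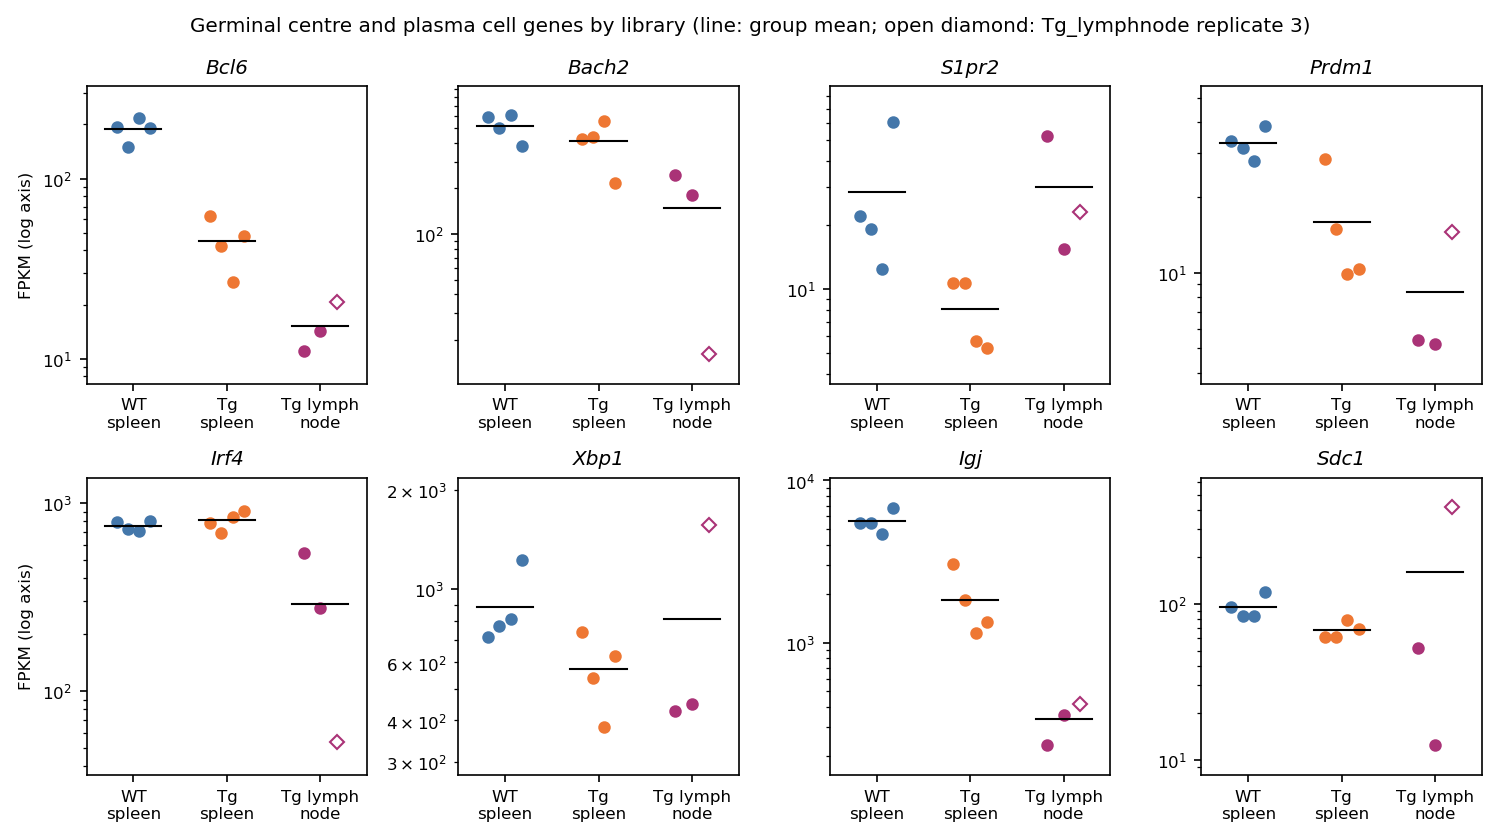
FPKM (log axis) of the 8 genes in each B cell library by group. Points are libraries, lines are group means, and the open diamond is Tg_lymphnode replicate 3, which is lowest for Irf4 (53.5) and Bach2 (16.1) and highest for Xbp1 (1566.8) and Sdc1 (414.3).

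Bcl6 stood at 194.5, 149.1, 215.7 and 191.3 FPKM in WT_spleen replicates 1, 3, 4 and 6. It stood at 62.3, 42.3, 26.8 and 48.3 FPKM in Tg_spleen replicates 2, 3, 4 and 5, and at 11.0, 14.2 and 20.7 in Tg_lymphnode replicates 1, 2 and 3. The levels fell in steps from group to group, and no library of one group reached the range of another. The difference was -2.10 ± 0.24 (SE) between Tg_spleen and WT_spleen (n = 4 and 4, limma adjusted p = 0.00157), a 4.29-fold lower level. Between Tg_lymphnode and WT_spleen it was -3.61 ± 0.25 (n = 3 and 4, limma adjusted p = 9.55e-05), 12.2-fold lower, and -3.84 without replicate 3 (limma adjusted p = 2.07e-05). The step from Tg_spleen to Tg_lymphnode, -1.51 ± 0.38, did not pass (limma adjusted p = 0.0542) and passed without replicate 3, at -1.74 (limma adjusted p = 0.0384), or without Tg_spleen replicate 4, at -1.73 (limma adjusted p = 0.0424).

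Bach2, the repressor that holds plasma cell differentiation back, stood at 587.8, 500.0, 605.4 and 382.3 FPKM in WT_spleen and at 420.7, 434.9, 559.4 and 218.4 in Tg_spleen. These ranges overlapped, and the difference of -0.40 ± 0.27 did not pass (limma adjusted p = 0.290). In Tg_lymphnode Bach2 was at 245.2, 181.8 and 16.1 FPKM, with replicate 3 far below the other 2. The difference from WT_spleen was -2.50 ± 0.84 (limma adjusted p = 0.0482), and without replicate 3 it was -1.27 ± 0.22 (limma adjusted p = 0.00215). The call was lost when any 1 WT_spleen library or Tg_lymphnode replicate 2 was left out, with adjusted p of 0.0508 to 0.102. It was also lost with a pseudocount of 0.1 (limma adjusted p = 0.0501), no filter (0.0551), quantile normalization (0.0506), no trend and robust moderation (0.0666) or the level of the short RNA Rpph1 as a covariate (0.0818). Against Tg_spleen, Bach2 did not pass with replicate 3 (-2.10) or without it (-0.87).

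S1pr2, the confinement receptor, was a low gene, at 21.9, 19.1, 12.4 and 60.8 FPKM in WT_spleen and 10.7, 10.7, 5.7 and 5.3 in Tg_spleen. Every Tg_spleen library lay below every WT_spleen library, and WT_spleen replicate 6 was far above its group. The difference was -1.57 ± 0.46 (limma adjusted p = 0.0319), and without WT_spleen replicate 6 it was -1.12 and no longer passed (adjusted p = 0.0579). In Tg_lymphnode S1pr2 was at 52.3, 15.4 and 22.9 FPKM, inside the WT_spleen range and above every Tg_spleen library. Neither difference passed: 0.15 ± 0.60 from WT_spleen (limma adjusted p = 0.861) and 1.72 ± 0.50 from Tg_spleen (limma adjusted p = 0.0867). Without replicate 3 they were 0.26 (limma adjusted p = 0.791) and 1.82 (limma adjusted p = 0.0978). Its order of group means was thus Tg_lymphnode (30.2), WT_spleen (28.6) and Tg_spleen (8.10), with the first 2 not separated beyond their spread.

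Prdm1, the plasma cell repressor, was at 33.6, 31.4, 27.8 and 38.6 FPKM in WT_spleen and at 28.4, 14.9, 9.9 and 10.4 in Tg_spleen. Tg_spleen replicate 2 reached the WT_spleen range and the other 3 lay between 9.9 and 14.9. The difference was -1.14 ± 0.32 (limma adjusted p = 0.0272), and the call was lost under 11 of 21 alternatives. Rpph1 stood at 545352.8 to 735331.0 FPKM in WT_spleen replicates 1 and 3 and Tg_spleen replicates 2 and 3. It stood at 153473.6 to 215865.1 in the other spleen libraries and at 442639.7 to 608648.9 in Tg_lymphnode. In the spleen libraries with high Rpph1, Prdm1 differed by -0.64 and did not pass (limma adjusted p = 0.253). In those with low Rpph1 the call held. Over all alternatives the difference ranged from -1.64 to -0.64. In Tg_lymphnode Prdm1 was at 5.4, 5.2 and 14.6 FPKM, all below WT_spleen, with a difference of -2.05 ± 0.40 (limma adjusted p = 0.00536). Without replicate 3 that difference was -2.51 (limma adjusted p = 0.000231). Against Tg_spleen, Prdm1 did not pass with replicate 3, at -0.91 ± 0.53 (limma adjusted p = 0.345), or without it, at -1.37 (limma adjusted p = 0.140). Bcl6 and Prdm1, which repress each other, were both lower in both transgenic groups.

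Irf4 was at 789.3, 731.7, 708.0 and 800.7 FPKM in WT_spleen and at 787.4, 696.6, 843.1 and 911.6 in Tg_spleen. The ranges overlapped, and the difference was 0.09 ± 0.13 (limma adjusted p = 0.629). In Tg_lymphnode Irf4 was at 540.4, 275.9 and 53.5 FPKM, all below both spleen groups. The difference from WT_spleen was -1.92 ± 0.67 and missed the threshold (limma adjusted p = 0.0545). It passed without replicate 3, at -0.97 (limma adjusted p = 0.0129), and without replicate 1, at -2.63 (limma adjusted p = 0.0144). Against Tg_spleen, Irf4 did not pass with replicate 3, at -2.01 ± 0.66 (limma adjusted p = 0.117), or without it, at -1.06 (limma adjusted p = 0.0719). It passed there without Tg_lymphnode replicate 1, at -2.72 (limma adjusted p = 0.0446).

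Xbp1 was at 718.7, 773.7, 811.5 and 1231.1 FPKM in WT_spleen and at 741.4, 540.1, 381.1 and 627.0 in Tg_spleen. 3 of the 4 Tg_spleen libraries lay below WT_spleen, and the difference of -0.63 ± 0.23 did not pass (limma adjusted p = 0.0679). In Tg_lymphnode, replicates 1 and 2 had Xbp1 at 426.0 and 448.7 FPKM, while replicate 3 had it at 1566.8, the highest of all 11 libraries. The difference from WT_spleen was -0.37 ± 0.46 with replicate 3 (limma adjusted p = 0.557) and -0.98 ± 0.22 without it (limma adjusted p = 0.00817). The direction against Tg_spleen turned with that library, from 0.27 to -0.35, and neither value passed.

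Igj had the highest level of the 8 genes in the spleen groups. It was at 5495.7, 5464.5, 4680.9 and 6770.9 FPKM in WT_spleen, at 3064.1, 1820.4, 1151.1 and 1334.5 in Tg_spleen, and at 234.6, 359.4 and 415.9 in Tg_lymphnode. The 3 groups did not overlap. The difference from WT_spleen was -1.70 ± 0.29 in Tg_spleen (limma adjusted p = 0.00471), 3.25-fold lower, and -4.08 ± 0.24 in Tg_lymphnode (limma adjusted p = 8.04e-05), 16.9-fold lower. The step from Tg_spleen to Tg_lymphnode was -2.38 ± 0.36 (limma adjusted p = 0.00925). These calls also held without replicate 3.

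Sdc1 was at 95.3, 83.6, 83.8 and 118.1 FPKM in WT_spleen and at 61.6, 60.8, 78.8 and 68.7 in Tg_spleen. The groups did not overlap, with a difference of -0.49 ± 0.16 (limma adjusted p = 0.0458), close to the threshold. In Tg_lymphnode, replicates 1 and 2 had Sdc1 at 51.7 and 12.4 FPKM and replicate 3 had it at 414.3, so that 1 group held the lowest and the highest values. The difference from WT_spleen was -0.54 ± 0.99 (limma adjusted p = 0.700) and became -1.87 ± 0.50 without replicate 3 (limma adjusted p = 0.0197). Against Tg_spleen, Sdc1 did not pass with replicate 3, at -0.05 ± 0.96 (limma adjusted p = 0.984), or without it, at -1.38 (limma adjusted p = 0.139). Replicate 3 was also the library with the highest sums of plasmacytoid dendritic cell markers (13745) and of epithelium and exocrine gland markers (12803, with Krt8 and Krt19 at 2.6 FPKM each). The part of those cells in the Sdc1 level was not tested.

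**Figure D3:**
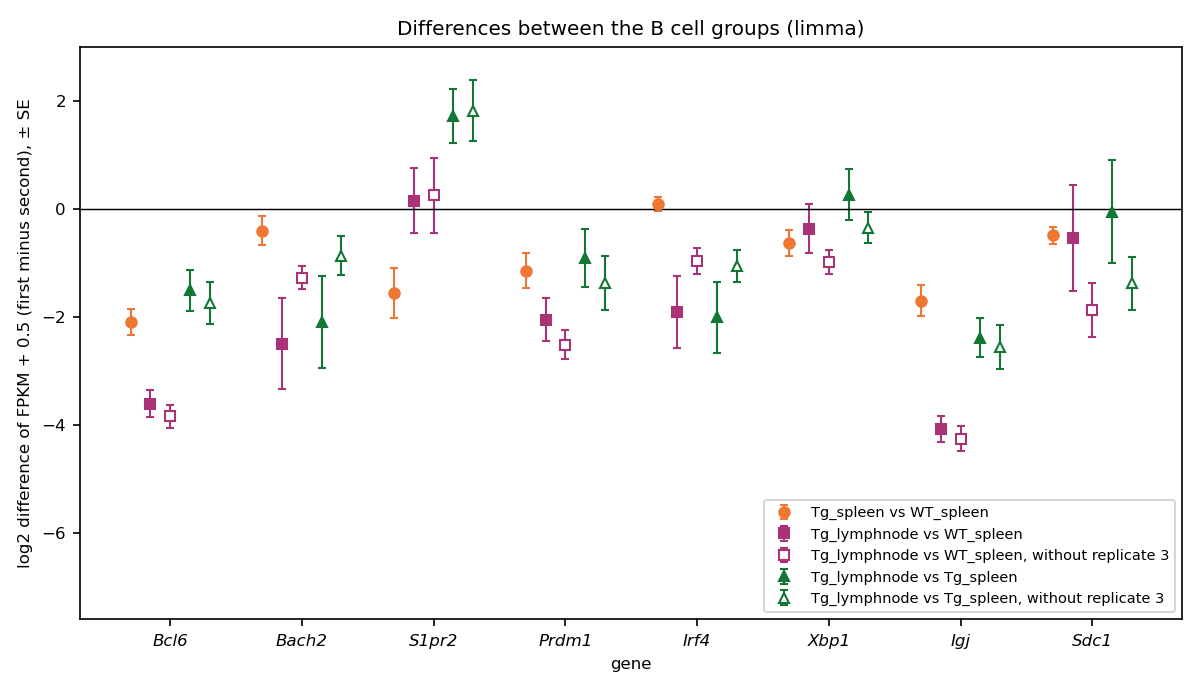
Log2 differences of FPKM + 0.5 (y axis, ± SE of the limma fit) of the 8 genes for the 3 comparisons of B cell groups, with open symbols for the fits without Tg_lymphnode replicate 3. Bcl6 and Igj lie furthest below 0 in Tg_lymphnode vs WT_spleen, at -3.61 and -4.08, and Xbp1 and Sdc1 move down without replicate 3.

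The calls of Bcl6 and Igj in Tg_spleen held when any 1 library was left out, and those of Prdm1, S1pr2 and Sdc1 did not. The count of 5 lower genes became 2 without WT_spleen replicate 1, 3 or 6 or Tg_spleen replicate 5, and 3 without WT_spleen replicate 4 or Tg_spleen replicate 3 or 4. Of 9 B cell markers, 4 were lower in Tg_spleen and 0 higher, as were 6 of 8 NK cell markers and 4 of 8 plasmacytoid dendritic cell markers, with 0 of 12 macrophage and monocyte markers in either direction. Over all genes, 12.2% were lower and 15.7% higher. The summed B cell markers of Tg_spleen (26313 to 39683) lay below those of WT_spleen (43788 to 48343). The part of these cell types in the differences of the 8 genes was not tested. In Tg_lymphnode, 4 of 9 B cell markers were lower than in WT_spleen and 0 higher, with a median log2 difference of -2.31, and without replicate 3 it was 7 lower, with a median of -1.11. The shares of all genes were 17.7% lower and 20.3% higher, and 21.1% and 22.9% without replicate 3. Of 12 macrophage and monocyte markers, 10 were lower and 1 higher (11 and 1 without replicate 3), and of 8 NK cell markers 7 were lower (5 without it). Higher were 9 of 9 fibroblast markers (9 without it), 7 of 13 epithelium and exocrine gland markers (7, with 1 lower, without it), and 3 of 12 T cell markers (4 without it). With replicate 3, the T cell share is near that of all genes. Of 10 stroma and endothelium markers 7 were higher and 1 lower (9 and 1 without replicate 3), and of 8 plasmacytoid dendritic cell markers 1 was higher and 1 lower (1 and 2 without it). Their part was not tested either.

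The genes whose course over the 11 B cell libraries was most like that of each gene were found by the root mean square difference of centred log2(FPKM + 0.5) values, among 11583 genes. The nearest to Bcl6 were Irak2, a kinase of Toll-like receptor signalling (0.36), and Icosl, the ligand of ICOS (0.40). Icosl stood at 1129.6 to 1510.5 FPKM in WT_spleen, 131.6 to 550.5 in Tg_spleen and 140.3 to 177.6 in Tg_lymphnode. The nearest to Igj were Ppfibp2 (0.36) and Cd83, an activation marker (0.38), which stood at 1064.9 to 1202.2 FPKM, 174.6 to 865.5 and 40.5 to 110.2 in the same groups. The nearest to Prdm1 were Plek (0.22) and Ctso (0.23), and those to Irf4 were Cotl1 (0.21) and Gga2 (0.24). The nearest to Bach2 were Pax5, the factor of B cell identity (0.30), and Chst3 (0.36), and Pax5 was at 109.5 FPKM in Tg_lymphnode replicate 3 and at 1267.6 or more elsewhere. The nearest to Sdc1 were Eif2c4 (0.41) and Tcf4 (0.43), with Tcf4 at 814.8 FPKM in that library and 67.0 to 382.2 elsewhere. S1pr2 had no close neighbour, with Aoah at 0.53 and Dram1 at 0.53, and Xbp1 was left out because its group means spanned less than 1 on the log2 scale.

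Of 20 other germinal centre genes, 7 were lower and 3 higher in Tg_spleen, with a median log2 difference of -0.50. Over all genes, 12.2% were lower and 15.7% higher, so the higher count is near the share of all genes. Rgs13, a regulator of chemokine receptor signalling in germinal centre cells, was at 15.1 ± 7.34 FPKM (SD, n = 4) against 78.8 ± 34.9 in WT_spleen (limma adjusted p = 0.00558). The transcription factors Mef2b (6.57 ± 1.55 against 28.2 ± 14.5 FPKM) and Mef2c (608 ± 185 against 1217 ± 56.9 FPKM) were also lower. In Tg_lymphnode, 12 of the 20 were lower and 1 higher than in WT_spleen (12 and 3 without replicate 3), with a median of -1.98 (-1.35 without it). The shares of all genes were 17.7% lower and 20.3% higher (21.1% and 22.9% without replicate 3). Cxcr5, the follicle homing receptor, was at 66.4 ± 40.9 FPKM (n = 3) against 1777 ± 139, and Rgs13 was at 0.77 ± 0.80. Spib, a factor of germinal centre B cells, was at 545 ± 135 against 2240 ± 182 FPKM. Against Tg_spleen, 6 of the 20 were lower (4 lower and 1 higher without replicate 3), led by Cxcr5, Spib and Rgs13. Of all genes, 2.39% were lower and 3.56% higher there (2.76% and 3.37% without replicate 3).

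Of 18 other plasma cell genes, 6 were lower and 2 higher in Tg_spleen, and 6 lower and 2 higher in Tg_lymphnode against WT_spleen. Their median log2 difference was -0.07 in Tg_spleen. In Tg_lymphnode it was 0.10 with replicate 3 and -0.56 without it, when 8 were lower and 4 higher. Of all genes, 12.2% were lower and 15.7% higher in Tg_spleen. In Tg_lymphnode the shares were 17.7% and 20.3%, and 21.1% and 22.9% without replicate 3. The higher counts are near or below these shares and are no result about the list. Fkbp11, a folding enzyme of secretory cells, was higher in Tg_spleen (168 ± 32.7 against 53.0 ± 26.5 FPKM, limma adjusted p = 0.00434). Pigr, the receptor that carries polymeric antibody across epithelia, was lower in both (7.78 ± 3.83 FPKM in Tg_spleen and 2.50 ± 0.70 in Tg_lymphnode, against 27.6 ± 8.74). Tnfrsf13b, a receptor for the survival factors BAFF and APRIL, was at 347 ± 58.2 FPKM in Tg_spleen and 266 ± 52.1 in Tg_lymphnode, against 556 ± 63.5. Cd38, a surface enzyme, was at 346 ± 165 in Tg_lymphnode against 1450 ± 65.6 FPKM (limma adjusted p = 0.00141). Between the transgenic groups 1 was lower (Eaf2) and 1 higher (Cav1), and 3 and 1 without replicate 3. Cav1 was also expressed in the fibroblasts, and the part of other cells of the node in its difference was not tested. The shares of all genes were 2.39% and 3.56%, and 2.76% and 3.37% without replicate 3.

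Of 30 genes of the endoplasmic reticulum and the unfolded protein response, 5 were higher and 2 lower in Tg_spleen, with a median log2 difference of 0.07. The higher share is near the 15.7% of all genes, so the count is no result about the list, and single genes are given as values. Canx, a chaperone of glycoproteins, was at 2346 ± 566 FPKM against 1215 ± 149 (limma adjusted p = 0.00914). Sec61b, a subunit of the translocation channel, was also higher, and Edem1, which routes misfolded proteins to degradation, was lower (388 ± 68.9 against 583 ± 56.9 FPKM). In Tg_lymphnode against WT_spleen, 7 were higher and 3 lower (6 and 4 without replicate 3), led by Canx (3588 ± 780 FPKM), Sdf2l1 (678 ± 362 against 218 ± 65.4) and Dnajb11 (427 ± 27.8 against 302 ± 31.8), all higher. This higher share too is near that of all genes, 20.3% (22.9% without replicate 3). The lower shares of all genes were 12.2% in Tg_spleen and 17.7% in Tg_lymphnode (21.1% without replicate 3). Against Tg_spleen 0 of the 30 passed limma's test with or without replicate 3 (with it, 1 was higher and 2 were lower at an unadjusted p under 0.05), and Hsp90b1, the most abundant, was at 5425 ± 3290 against 3617 ± 404 FPKM. The median of that comparison was 0.34 with replicate 3 and -0.05 without it.

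Of 15 genes that Prdm1 is known to repress, 8 were lower and 0 higher in Tg_spleen and 10 were lower and 0 higher in Tg_lymphnode against WT_spleen (12 without replicate 3). Bcl6 itself is in this list. Of all genes, 12.2% were lower and 15.7% higher in Tg_spleen. In Tg_lymphnode the shares were 17.7% and 20.3%, and 21.1% and 22.9% without replicate 3. Il21r, the interleukin 21 receptor, was at 357 ± 170 FPKM in Tg_spleen and 138 ± 57.0 in Tg_lymphnode against 936 ± 61.8 in WT_spleen. Cr2, the complement receptor CD21, was at 80.3 ± 44.1 FPKM in Tg_lymphnode against 2635 ± 338 (limma adjusted p = 9.55e-05), and Klf2, a factor of quiescent lymphocytes, was at 442 ± 81.4 in Tg_spleen against 752 ± 124. Against Tg_spleen 3 were lower in Tg_lymphnode (Spib, Ets1 and Cr2), and 3 without replicate 3, beside 2.39% and 2.76% of all genes.

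Of 18 genes that Bcl6 is known to repress, 7 were lower and 2 higher in Tg_spleen and 10 lower and 2 higher in Tg_lymphnode against WT_spleen (12 and 3 without replicate 3). Prdm1 and Irf4 are in this list. Of all genes, 12.2% were lower and 15.7% higher in Tg_spleen. In Tg_lymphnode the shares were 17.7% and 20.3%, and 21.1% and 22.9% without replicate 3. The higher counts lie below these shares and are no result about the list. Chek1, a checkpoint kinase, was higher in both (133 ± 65.8 and 131 ± 36.7 against 22.1 ± 4.57 FPKM). Bcl2, which protects from cell death, was lower in Tg_spleen (173 ± 96.8 against 440 ± 18.0 FPKM), and Trp53 was higher (613 ± 125 against 380 ± 25.5). S1pr1, the receptor for exit into the blood (320 ± 44.7 against 1162 ± 125 FPKM), Gpr183, which guides B cells to the follicle edge (141 ± 33.4 against 548 ± 45.2) and Cd69, an early activation antigen (100.0 ± 10.2 against 443 ± 105) were lower in Tg_lymphnode. Against Tg_spleen 2 were lower, S1pr1 and Cdkn1b, and 2 without replicate 3, beside 2.39% and 2.76% of all genes.

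Of 11 receptors that position B cells, 7 were lower in Tg_spleen and 9 in Tg_lymphnode against WT_spleen, with 0 higher in either, also without replicate 3. Of all genes, 12.2% were lower and 15.7% higher in Tg_spleen. In Tg_lymphnode the shares were 17.7% and 20.3%, and 21.1% and 22.9% without replicate 3. Cnr2, a cannabinoid receptor, was at 423 ± 183 FPKM in Tg_spleen against 837 ± 41.0, and the integrin subunit Itgal was at 235 ± 101 against 489 ± 70.3. S1pr3, a relative of S1pr2, was at 9.67 ± 2.57 in Tg_lymphnode against 93.4 ± 14.9 FPKM (limma adjusted p = 0.000151), while S1pr2 was not called there. Against Tg_spleen 3 were lower (Cxcr5, S1pr1 and Cnr2), and 3 without replicate 3, beside 2.39% and 2.76% of all genes.

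Of 25 relatives and partners of the 8 genes, 24 were tested in Tg_spleen, and 5 of them were lower and 0 higher. The shares of all genes were 12.2% lower and 15.7% higher. Bach1, the paralogue of Bach2, was at 68.8 ± 7.44 against 95.7 ± 7.05 FPKM, Irf8, a relative of Irf4, was at 991 ± 239 against 1541 ± 78.9, and Prdm2 was at 230 ± 62.1 against 374 ± 62.3. In Tg_lymphnode 9 were lower and 1 higher than in WT_spleen (14 and 2 without replicate 3), and Sdc2, a relative of Sdc1, was the one that was higher (4.1 ± 1.05 against 0.35 ± 0.06 FPKM, both low). Of all genes, 17.7% were lower and 20.3% higher (21.1% and 22.9% without replicate 3). Against Tg_spleen S1pr1 was lower and Sdc2 higher, and without replicate 3 the counts were 2 lower and 0 higher. The shares of all genes were 2.39% and 3.56%, and 2.76% and 3.37% without replicate 3. With replicate 3 the counts are near these shares.

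Of 16 immunoglobulin constant region and surrogate light chain genes, 4 were matched, all of the surrogate light chain or its relatives (Igll1, Vpreb1, Vpreb2 and Vpreb3). Vpreb3, which binds newly made light chains, was at 557.3 to 698.4 FPKM in WT_spleen and 648.4 to 2486.7 in Tg_spleen (limma adjusted p = 0.0414), at 2103.1 and 1363.7 in Tg_lymphnode replicates 1 and 2, and listed at 0 in replicate 3. The constant region genes sought were not matched by symbol, so Igj has no antibody chain beside it.

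**Figure D4:**
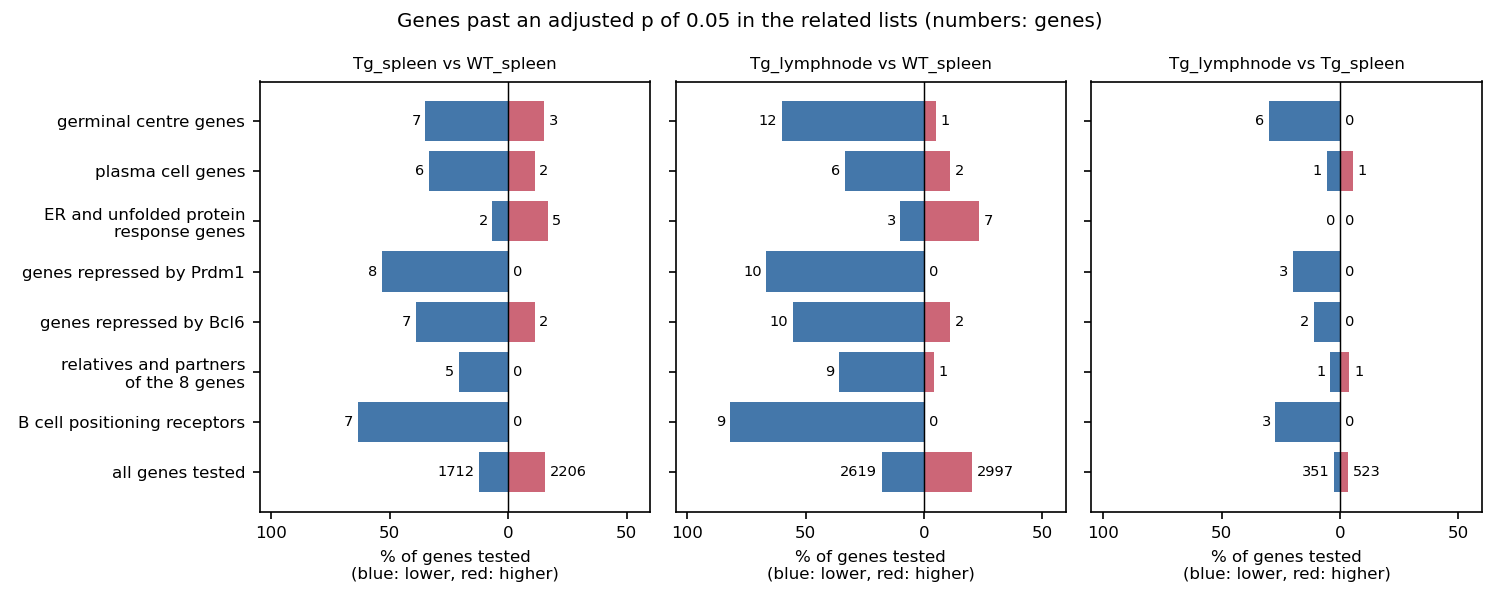
Share of the tested genes of 7 related lists and of all genes that passed an adjusted p of 0.05, lower to the left and higher to the right, with the number of genes beside each bar, for the 3 comparisons of B cell groups. Of 11 positioning receptors, 7 and 9 were lower against WT_spleen, and for all genes the lower share was 12.2% and 17.7%.

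In fibroblasts the deposited FPKM ran on a compressed scale, with the highest value of a total RNA library between 138.6 and 200.6, so levels are not set beside those of B cells. Of the 9 B cell markers, the sum was 11.2 FPKM or less in every library, and the 9 fibroblast markers summed to 393 to 483. Prdm1 and Irf4 were below 0.36 FPKM in every library and were not tested, and the other 6 genes were. Igj (0.77 to 3.58 FPKM) and Bach2 (0.69 to 1.80) were close to the filter of 1 FPKM. The gene listed as Myc stood at 24.3 ± 3.98 FPKM at 0 h and at 10.8 ± 2.84, 12.5 ± 2.20 and 9.78 ± 1.41 at 4, 8 and 16 h.

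Xbp1 was the 1 gene of the 8 that passed at 4 h. It was at 35.8, 35.4, 36.5 and 34.3 FPKM in OHT_0h replicates 1 to 4, at 22.1, 21.9, 22.9 and 31.1 in OHT_4h, at 30.6, 30.1, 30.8 and 28.1 in OHT_8h, and at 28.5, 27.3, 28.6 and 20.1 in OHT_16h. Every treated library lay below every OHT_0h library. The library numbered 4 was high at 4 h and low at 16 h. At 4 h, 1 of the 6 tested genes was lower and 0 were higher, beside 2.88% lower and 1.9% higher of all 12934 genes. Xbp1 differed by -0.54 ± 0.13 (n = 4 and 4, limma adjusted p = 0.0222), 1.45-fold lower on the compressed scale of these values. The fold of the RNA itself may differ. At 8 h limma called 0 of 6 in either direction (also 0 at an unadjusted p under 0.05), beside 0.982% lower and 1.21% higher of all genes, and Xbp1 differed by -0.24 ± 0.13 (limma adjusted p = 0.476). At 16 h, 2 of 6 were lower and 0 higher, beside 7.75% lower and 1.76% higher of all genes, with Xbp1 at -0.45 ± 0.13 (limma adjusted p = 0.0396) and Bach2 at -0.61 ± 0.18 (limma adjusted p = 0.0403).

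The median of all genes at 16 h was itself -0.14, and relative to it these differences are smaller. With median ratio scaling that median was 0.05, Xbp1 was at -0.25 (limma adjusted p = 0.254), and the split over all genes changed from 228 higher and 1002 lower to 979 higher and 947 lower. With quantile normalization it was 999 and 1053. The 4 h call of Xbp1 was lost without OHT_0h replicate 1, 2 or 3 or OHT_4h replicate 1, 2 or 3 (adjusted p of 0.0611 to 0.0969) and held without replicate 4 of either group. At 16 h, neither gene was called without OHT_0h replicate 1, 2 or 4 or OHT_16h replicate 2 or 4, and 1 was called without OHT_0h replicate 3 or OHT_16h replicate 3. The 3 time points share the OHT_0h libraries.

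Bcl6 in fibroblasts was at 12.5, 13.0, 11.6 and 9.87 FPKM in OHT_0h and at 12.6, 7.81, 8.77 and 4.28 in OHT_16h, ranges that overlap (limma adjusted p = 0.249). Sdc1 was the most abundant of the 8 at 57.2 ± 5.27 FPKM at 0 h and 53.9 ± 6.11, 61.4 ± 9.33 and 57.2 ± 3.34 later. S1pr2 was at 44.6 ± 5.38 FPKM at 0 h and at 35.4 ± 7.88, 41.2 ± 4.68 and 35.5 ± 9.25 at 4, 8 and 16 h, and passed at none of them. With the libraries numbered 4 left out, S1pr2 passed at 4 h beside Xbp1 (-0.55, limma adjusted p = 0.0273), and 0 of the tested members passed at 16 h. Of all 13001 genes, 6.65% were then lower and 3.16% higher at 4 h, and 6.46% and 2.27% at 16 h.

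**Figure D5:**
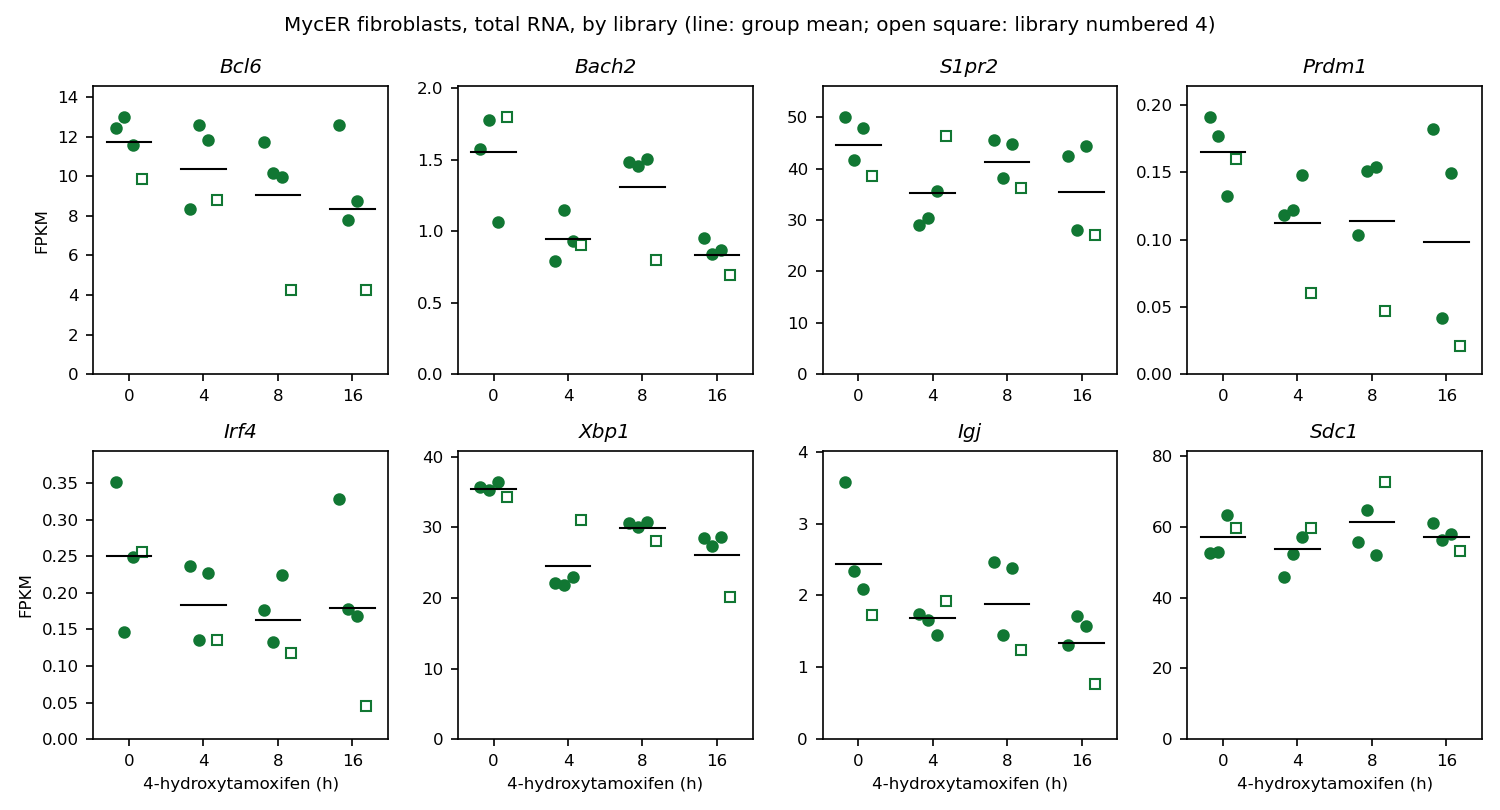
FPKM of the 8 genes in total RNA of MycER fibroblasts by hours of 4-hydroxytamoxifen. Points are libraries, open squares are the libraries numbered 4, and lines are group means. Xbp1 lies between 34.3 and 36.5 at 0 h and below that in all 12 treated libraries.

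Of 30 endoplasmic reticulum genes, limma called 0 at 4 h and at 8 h, where 4 and 1 had an unadjusted p under 0.05, and 3 were lower at 16 h (Sec24d, Atf6 and Edem1), a share near the 7.75% of all genes. Sec24d, a coat protein of vesicles leaving the endoplasmic reticulum, was at 34.8 ± 7.38 against 56.7 ± 4.33 FPKM (limma adjusted p = 0.00536). Of 19 tested relatives and partners, Batf3, a partner of Irf4, was higher at 4, 8 and 16 h (8.03 ± 1.71, 7.06 ± 1.35 and 8.19 ± 2.73 against 2.49 ± 0.56 FPKM). Maff, a small Maf protein of the kind that pairs with Bach2, was lower at 4 and 16 h (15.0 ± 4.30 and 12.3 ± 2.29 against 30.5 ± 2.99), and Bach1 and Atf6 were lower at 16 h. Of 9 tested germinal centre genes, 2, 1 and 3 were lower at 4, 8 and 16 h, with Efnb1, a membrane ligand, among them each time (12.2 ± 2.05, 11.9 ± 3.32 and 10.8 ± 4.29 against 25.2 ± 4.34 FPKM). The lower shares of all genes were 2.88%, 0.982% and 7.75% at those times, and the higher shares were 1.9%, 1.21% and 1.76%. Of 11 plasma cell genes, 6 genes repressed by Prdm1 and 4 positioning receptors, 0 passed limma's test at any time, and at an unadjusted p under 0.05 the counts at 4, 8 and 16 h were 2, 1 and 2, then 1, 1 and 1, then 0, 0 and 1. Of 13 genes repressed by Bcl6, 1 was lower at 16 h (Cdkn1a, 0.49 ± 0.09 against 2.37 ± 2.14 FPKM), a share near that of all genes.

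In nascent RNA, with 1 library per time, there is no replicate check. Xbp1 was at 16.4 FPKM at 0 h and 14.9 at 4 h, a log2 difference of -0.14, and Bach2 was at 4.36 and 2.65, a difference of -0.63. Bcl6 went from 5.83 to 4.17 FPKM (-0.44), Sdc1 from 12.3 to 15.2 (0.29) and S1pr2 from 8.62 to 11.5 (0.40). The median over 12375 genes was 0.02. Prdm1 and Irf4 were at 0.12 FPKM or less in both libraries, and Igj was at 1.503 and 1.599.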

How the data were processed

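RNA was measured in 29 mouse libraries. Reads were aligned with TopHat2 2.0.8 to mm9 and HTSeq 0.5.3p9 and SAMtools were used, per the submitters' processing notes. The deposited values are FPKM per gene, made by the authors; how FPKM was computed is not given in the sources used here. The 8 genes and the related lists were chosen with earlier results of these data known. Groups were taken from the labels. Values were taken as log2(FPKM + 0.5), a gene was kept if the number of libraries with at least 1 FPKM reached the size of the smaller group (4 of all 16 in fibroblasts, which were fitted together), and 6 comparisons were fitted with limma 3.58.1 (R 4.3.3) with trend and robust moderation, each over all genes, with Benjamini-Hochberg adjustment. The fit was tested on simulated data. The 8 genes, the genes nearest to each in course and up to 3 genes per list with the lowest adjusted p are named, with others chosen after their values were seen. Alternatives changed the pseudocount, filter, scaling, fit, replicate block and libraries; leaving out the libraries numbered 4 was chosen after seeing the data. Nascent RNA was not tested. Some genes of the lists are not reported here by name. Intervals for counting error were not computed, and the scaling denominator is an estimate from short RNAs.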

Additional observations from a re-analysis of the deposited data

Results flagged for a closer look

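In 3 of 48 groups tested, each of 1 gene in 4 libraries, 1 library lay far from the others of its group by Dixon's test. Chance passes the limit of this test in about 1 in 20 groups, so the count is near that of chance. All 3 were fibroblast libraries numbered 4. Tg_lymphnode, with 3 libraries, was not among the groups tested. Xbp1 was at 31.071 FPKM in OHT_4h replicate 4, and the others were at 21.85 to 22.91. Xbp1 was at 20.09 FPKM in OHT_16h replicate 4, and the others were at 27.31 to 28.599. Bach2 was at 0.797 FPKM in OHT_8h replicate 4, and the others were at 1.456 to 1.502.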

How the results depend on the processing

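Of 774 values of single genes under alternatives, 652 kept direction and side of the threshold, 80 no longer passed, 16 newly passed and 26 changed sign. The count of genes lower in Tg_spleen than in WT_spleen, 5, became 2 in a fit on all 3 B cell groups, 2 when centred on 4 B cell genes, 2 in the libraries with a high level of the short RNA Rpph1, 3 in those with a low one, and 2 to 5 with 1 library left out. It was 4 with no filter, median ratio scaling or no trend and robust moderation, each losing Sdc1, and 6 with quantile normalization, which added Xbp1. In Tg_lymphnode against WT_spleen, 4 became 0 with B cell gene centring and 3 to 7 with 1 library left out. It was 3, losing Bach2, with a pseudocount of 0.1, no filter, quantile normalization, no trend and robust moderation or the Rpph1 covariate, and 5 in the fit on 3 groups, which added Irf4. Against Tg_spleen, 1 became 2 with quantile normalization, 2 without trend and robust moderation, 3 in the fit on 3 groups, 0 with B cell gene centring and 1 to 2 with 1 library left out. At 4 h, 1 became 0 to 1 with 1 library left out and 2 without the libraries numbered 4. At 16 h, 2 became 1 with no filter, a filter at 5 FPKM, median ratio scaling or quantile normalization, 0 in a fit on 2 groups, 0 without the libraries numbered 4 and 0 to 2 with 1 library left out. The cause was not tested.

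Same-numbered samples had correlations of deviations of -0.023 to 0.12 in B cells and 0.018 to 0.64 in fibroblasts. They were above 0.1 in 1 of 6 pairs and 19 of 24 pairs, not in every pair, and nothing in the labels ties the numbers to a batch, so the numbers were not taken as pairs. With the replicate block the counts of lower genes were 2, 0 and 0 in the B cell comparisons in the order above and 3 at 16 h, where Igj was added (-0.67, limma adjusted p = 0.0187). In fibroblasts the block raised the calls over all genes from 246 higher and 372 lower to 408 and 697 at 4 h, from 156 and 127 to 313 and 416 at 8 h and from 228 and 1002 to 349 and 1722 at 16 h. It gave 840, 0 and 0 calls over all genes in B cells in place of 3918, 5616 and 874. It turned Xbp1 (0.13) and Sdc1 (0.71) in Tg_lymphnode against WT_spleen and Sdc1 (0.25) against Tg_spleen.

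Other changes of sign were as follows. Irf4 in Tg_spleen was at -0.083 with quantile normalization and -0.037 with high Rpph1. With B cell gene centring, Tg_lymphnode against WT_spleen gave Prdm1 0.071, Irf4 0.21, Xbp1 1.76 and Sdc1 1.59, and against Tg_spleen Bcl6 0.31, Prdm1 0.91 and Sdc1 1.77. The medians of all genes then stood at 0.26, 2.17 and 1.83, the centring genes being low in Tg_lymphnode replicate 3. Over WT_spleen, Sdc1 ranged from -1.87 (without Tg_lymphnode replicate 3) to 0.64 (without replicate 2), and S1pr2 was at -0.00618 with quantile normalization, -0.15 without WT_spleen replicate 4, and from -0.33 (without Tg_lymphnode replicate 1) to 0.60 (without WT_spleen replicate 6). Over Tg_spleen, Xbp1 ranged from -0.35 (without Tg_lymphnode replicate 3) to 0.59 (without replicate 1), and Sdc1 was at 0.16 with Rpph1 as a covariate, 0.028 without Tg_spleen replicate 4, 0.11 and 1.122 without Tg_lymphnode replicates 1 and 2, and -1.38 without replicate 3. Bach2 at 8 h was at 0.022 without the libraries numbered 4. Sdc1 at 16 h was between -0.034 and 0.055 with 1 library left out, below 0 without OHT_0h replicate 1 or 2 or OHT_16h replicate 1 or 3. Calls over all genes ranged from 265 to 1763 at 4 h (618), 147 to 1165 at 8 h (283) and 674 to 2071 at 16 h (1230). At 4 h, 246 higher and 372 lower became 738 and 719 with median ratio scaling and 858 and 905 with quantile normalization. Tg_lymphnode against Tg_spleen went from 523 higher and 351 lower to 364 and 369 with quantile normalization. Igj and Bach2 had no value in fibroblasts with the filter at 5 FPKM. Low levels limit Prdm1 and Bcl6 in Tg_lymphnode.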
